A study of Mus musculus with 34 samples.

Results

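The 45 genes described here run the mammalian cell cycle, from the G1 cyclins to the proteins of the mitotic spindle. They were taken as a list of gene symbols, with no threshold on a measured value. All 45 were found in each of the 2 tables of RNA levels, among 14552 genes in the first and 17406 in the second. By role, the list holds 8 G1 cyclins and cyclin-dependent kinases (CDKs), 3 CDK inhibitors, the transcription factors E2f1 and Foxm1, and 10 genes of DNA replication and nucleotide supply. The remaining 22 have mitotic roles: 8 mitotic cyclins and kinases, 6 checkpoint and kinetochore genes, 6 spindle motors and midzone genes, and the proliferation markers Mki67 and Top2a.

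A cell that leaves rest first raises D-type cyclins, which with Cdk4 and Cdk6 release E2F factors from the retinoblastoma protein, and E2F then switches on the replication genes. The mitotic genes follow later in the cycle, when the repressive DREAM complex has left their promoters and B-MYB and FOXM1 drive them, and the CDK inhibitors p21 (Cdkn1a), p27 (Cdkn1b) and p57 (Cdkn1c) brake the sequence. Adult cardiomyocytes rarely divide, whereas fibroblasts, endothelial cells and immune cells of an infarcted heart can.

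All mice were of the outbred CFW (Swiss Webster) stock, and all samples were heart left ventricle (LV). For myocardial infarction (MI), the left anterior descending artery was tied off for good. The first table holds uninjected hearts: 3 sham, 3 at 4 h post-MI and 4 at 24 h post-MI, with tissue from the ischemic area or its equivalent. The paper calls these controls sham operated, and their labels state that no operation was done. The second table, which the paper does not describe, holds 2 sham-operated hearts taken at 4 h and hearts whose infarct border zone received AC or Luc modRNA, a chemically modified messenger RNA, right after ligation. Luc is luciferase, the control. The labels do not spell out AC. There were 4 Luc and 4 AC libraries at 4 h, 3 and 3 at 24 h, and 4 and 4 at 48 h. The labels do not say whether the libraries of the second table came from separate mice, so p-values there measure the spread between libraries. In the sample titles the sham and 4 h libraries share 1 numbering, the 48 h libraries have another and the 24 h libraries have none, so time and library set cannot be told apart in comparisons across times. AC against Luc was always compared within a time.

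Levels are in CPM, read counts divided by a library size that the TMM method had scaled. The estimated reads on the listed genes ran from 12553519 to 18952669 per library in the first table and from 17091513 to 22192765 in the second, so that 1 read was worth between 0.0241 and 0.0479 CPM. Differences were tested with limma on log2(CPM + 1), over every gene whose mean in the table reached 1 CPM. Its q value, adjusted by Benjamini-Hochberg over those genes, had a threshold of 0.05. For members of low level this scale understates changes. All 45 members passed the filter in the second table. In the first, 32 did, and 13 were too low to test: Ccne1, Ccnb1, Ccnb2, Cdc20, Plk1, Aurka, Aurkb, Bub1, Bub1b, Birc5, Cenpe, Kif11 and Nusap1. In the second table the mean takes in the AC 48 h libraries, where most members were higher than in Luc libraries. A member could thus pass the filter through that group. Ccnb1, for example, was under 1 CPM in every sham, 4 h and 24 h library. The 7 cardiomyocyte markers summed to between 18773 and 72334 CPM in every library. Of the granulocyte precursor markers Elane, Mpo, Prtn3 and Ctsg, the first table lists only Prtn3 and the second only Mpo and Prtn3. These were below 1 CPM throughout. In bulk tissue, fewer cells of a type and less RNA per cell cannot be told apart. Library values below are listed in the order of the library names: sham D, H and I, 4 h C, D and E, and 24 h C, D, G and H in the first table, and in the second sham 1 and 2, 4 h 1 to 4, 24 h A, C and D, Luc 48 h 1 to 4, and AC 48 h 1, 2, 4 and 5.

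The promoters of mitotic genes are known for a DREAM-bound element, the CHR, and those of replication genes for E2F sites, so the windows that hold these letters are shown for members on which the results turn. RefSeq promoter windows on GRCm38.p6, from 250 bases before to 50 bases after a start, were found for 35 of the 45 members (39 windows of 300 bases). The CHR letters TTTGAA, read on both strands, were present in 13 of the 35 genes, which are 12 of 18 with mitotic roles, 1 of 9 replication genes (Mcm2) and 0 of 8 others. The variant TTCGAA was in 3, 1 and 0 of the same groups (10.3% of member windows and 1.56% of all). Counted by window, TTTGAA was in 35.9% of member windows and in 17.9% of all 32851 windows. Around TTTGAA, in capitals, the gene strand reads 5′ to 3′ as follows, with TTCAAA its reverse complement in Top2a.
Cdk1: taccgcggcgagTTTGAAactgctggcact
Ccnb2: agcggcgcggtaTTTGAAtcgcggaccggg
Plk1: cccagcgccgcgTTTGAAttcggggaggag
Prc1: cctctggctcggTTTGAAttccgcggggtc
Mki67: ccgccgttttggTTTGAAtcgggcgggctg
Top2a: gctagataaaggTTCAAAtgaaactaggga
These lie at chr10:69352910-69352939 (- strand), chr9:70421533-70421562 (- strand), chr7:122159453-122159482 (+ strand), chr7:80294434-80294463 (+ strand), chr7:135716460-135716489 (- strand) and chr11:99024195-99024224 (- strand), in that order.

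E2F sites were searched as 4 sequences on both strands, TTTGGCGC, TTTCCCGC, TTTGCCGC and TTTCGCGC. They were present in 6 of the 35 genes: Mcm3, Mcm5, Mcm6 and Mcm7 among 9 replication genes, Cdk1 among 18 with mitotic roles, and Cdk2 among 8 others. That is 15.4% of member windows and 2.26% of all windows. Other spellings gave other splits: GGCGGGA was in 6 of 18 mitotic, 3 of 9 replication and 2 of 8 other genes (30.8% of member windows, 11.3% of all), TTCCCGCC, which holds the reverse complement of GGCGGGA, in 0, 2 and 0 (5.13% and 2.19%), and TTTGGCGG and a longer form of it in none of the 35 (0.560% and 0.0548% of all windows). So whether these letters lie mainly in replication genes depends on the spelling. In the 4 Mcm genes, subunits of the helicase that unwinds DNA, the site reads as follows in capitals, with the reverse complement in Mcm3 and Mcm5.
Mcm3: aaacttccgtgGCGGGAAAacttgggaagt
Mcm5: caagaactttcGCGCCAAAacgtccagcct
Mcm6: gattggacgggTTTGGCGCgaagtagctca
Mcm7: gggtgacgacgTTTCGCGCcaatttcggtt
Their positions are chr1:20820275-20820304 (- strand), chr8:75109349-75109378 (+ strand), chr1:128359734-128359763 (- strand) and chr5:138171849-138171878 (- strand). The CCAAT box, which is frequent beside CHR elements, was in 26 of the 35 genes, in 71.8% of member windows and in 37.4% of all windows. A match of letters is a description and not evidence of binding.

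In uninjected hearts at 4 h post-MI, the CDK inhibitor gene Cdkn1a (chr17:29090979-29100723) was the single member to pass the test against sham. Its level was 36.8, 5.61 and 5.62 CPM in the sham libraries and 75.7, 88.98 and 56.7 CPM at 4 h. Sham library D stood above the other sham libraries, and every 4 h library was above all 3. Cdkn1a rose from 16.03 ± 18.03 CPM to 73.8 ± 16.2 CPM (SD, n = 3 each), and the test gave a log2 fold change of 2.64 (SE 0.55, limma q = 0.0309). The call was lost when any of 6 libraries (24 h H, 4 h C, D or E, sham H or I) was left out, with q up to 0.152 over all alternatives. The other 31 members tested did not pass. Beside them, 1.55% of all genes tested higher and 0.817% lower passed, and 3 of the 32 had an unadjusted p under 0.05. The members' median log2 fold change was 0.09, and that of all genes tested was -0.03. Higher genes made up 65.5% of all genes called with the deposited scaling and 48.8% after rescaling to equal totals, with Cdkn1a the 1 member called in both.

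At 24 h post-MI, Cdkn1a and 5 of 10 replication genes (Mcm3, Mcm5, Mcm6, Pcna and Tyms) were higher than in sham hearts, and Cdkn1c and 3 of 10 mitotic genes tested (Cenpf, Kif20a and Top2a) were lower. Of the 32 members tested, 8 rose and 6 fell, beside 35.6% of all genes tested higher and 30.3% lower, so the share called was below that background in both directions. Replication and nucleotide supply gave 5 increases and 1 decrease among 10, the G1 group 2 and 1 among 7 tested, the inhibitors 1 and 1 among 3, and the mitotic roles 0 increases and 3 decreases among 10 tested, the last a share close to that of all genes lower. The members' median was 0.05 and that of all genes 0.04. Infarct and sham libraries did not overlap for 13 members, beside 35.3% of all genes without overlap in the higher and 28.7% in the lower direction.

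Cdkn1a was at 225, 256, 134 and 178 CPM at 24 h. All 4 values were above every 4 h and sham library, with a log2 fold change of 4.03 (SE 0.51, limma q = 3.98e-05) against sham. Cdkn1c, the p57 inhibitor, was at 10.1, 9.64 and 9.197 CPM in sham hearts, 12.7, 8.903 and 9.83 at 4 h and 1.88, 2.85, 3.46 and 1.64 at 24 h. Every 24 h library was below every earlier library, and Cdkn1c fell by 1.65 on the log2 scale (SE 0.19, limma q = 1.61e-05). Cdkn1b, the p27 inhibitor, was at 27.2, 26.6 and 21.8 CPM in sham hearts, 21.8, 21.01 and 24.8 at 4 h and 26.9, 24.5, 22.2 and 21.8 at 24 h. Its groups overlapped, and it passed no comparison of the first table.

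Among the replication genes, Mcm6 was at 3.797, 2.14 and 4.68 CPM in sham hearts, 6.92, 2.01 and 7.32 at 4 h and 13.3, 12.3, 10.4 and 10.4 at 24 h. The 24 h libraries were above all others, and the 4 h libraries scattered from the sham level to about midway, with library D the lowest. The 24 h change was a log2 fold change of 1.51 (SE 0.32, limma q = 0.00156). Tyms, thymidylate synthase, was at 1.06, 0.679 and 1.31, 1.62, 1.15 and 0.997 and 4.78, 2.72, 3.59 and 3.603 CPM in the sham, 4 h and 24 h libraries. Its 24 h libraries were again the highest, with a log2 fold change of 1.21 (SE 0.18, limma q = 0.000114). Pcna, the sliding clamp of DNA polymerase, was at 18.5, 16.7 and 16.4, 20.04, 15.9 and 20.1 and 36.1, 28.6, 28.5 and 33.1 CPM, and its 24 h libraries did not overlap the others (0.83 (SE 0.12), limma q = 9.33e-05). Mcm3 and Mcm5 also rose, by 0.95 and 0.97 on the log2 scale. Rrm1, the large subunit of ribonucleotide reductase, which makes deoxynucleotides, went the other way, with 10.8, 12.3 and 12.2 CPM in sham hearts, 12.03, 10.4 and 12.6 at 4 h and 8.44, 6.85, 10.1 and 8.14 at 24 h. It fell by 0.45 on the log2 scale (SE 0.13, limma q = 0.00932), with every 24 h library below every earlier one.

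Of the G1 genes, Ccnd1, encoding cyclin D1, was at 43.4, 50.5 and 59.7 CPM in sham hearts, 42.9, 35.8 and 53.6 at 4 h and 74.3, 64.7, 67.6 and 77.03 at 24 h. Its 24 h libraries were above the others, with a log2 fold change of 0.47 (SE 0.14, limma q = 0.0136), a call lost without sham library D. Ccnd2, encoding cyclin D2, was at 58.98, 70.1 and 94.2, 51.1, 51.1 and 65.3 and 45.97, 41.8, 70.3 and 41.1 CPM in the same groups. Library G at 24 h lay within the sham range, and the decrease (-0.58 (SE 0.20), limma q = 0.0251) was lost in 5 alternatives. Cdk4, the partner kinase of the D cyclins, rose by 0.92 (SE 0.11) on the log2 scale. E2f1 was at 0.796, 0.928 and 1.37 CPM in sham hearts, 1.17, 0.910 and 1.12 at 4 h and 2.03, 1.03, 1.69 and 1.298 at 24 h. Foxm1 was at 1.48, 1.13 and 1.95, 2.29, 1.48 and 2.21 and 2.48, 2.06, 1.89 and 1.598 CPM. The groups overlapped for both factors, and neither passed a comparison of the first table.

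The mitotic genes were low in all 10 libraries, a few CPM or less, with the exception of Cenpf. Cenpf (chr1:189640614-189688087), a large kinetochore protein, was at 7.67, 24.000 and 52.7 CPM in sham hearts, 7.11, 9.19 and 12.04 at 4 h and 0.826, 0.438, 0.443 and 0.723 at 24 h. The sham libraries spread widely, the 4 h libraries lay around the lowest of them, and all 4 libraries at 24 h were under 1 CPM. Cenpf fell by 3.83 on the log2 scale (SE 0.46, limma q = 2.49e-05) at 24 h against sham. Mki67, which coats mitotic chromosomes and gives the Ki-67 antigen, was at 3.04, 2.46 and 5.102, 5.57, 2.87 and 6.43 and 1.95, 2.28, 2.54 and 1.22 CPM. Top2a, a topoisomerase that untangles replicated DNA, was at 2.42, 2.097 and 3.57, 4.74, 2.49 and 3.95 and 1.35, 0.845, 1.85 and 0.723 CPM. For both genes library D was the lowest at 4 h and all 24 h libraries lay below it. Top2a fell by 0.76 on the log2 scale (SE 0.23, limma q = 0.011) at 24 h against sham, a call lost without sham library I (limma q = 0.0578), while Mki67 gave -0.58 (SE 0.26) and did not pass (limma q = 0.0711).

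The main mitotic kinase Cdk1 was at 1.34, 0.565 and 1.105 CPM in sham hearts, 1.84, 0.862 and 1.39 at 4 h and 0.976, 0.688, 1.45 and 0.913 at 24 h. Its partner Ccnb1, cyclin B1, was at 0.542, 0.323 and 0.390, 0.602, 0.479 and 0.813 and 0.263, 0.532, 0.282 and 0.342 CPM and was too low to test. The groups overlapped for both. Ccna2, cyclin A2, was at 1.34, 1.22 and 2.65, 2.64, 2.13 and 1.51 and 1.95, 1.45, 1.86 and 1.11 CPM. The spindle checkpoint gene Mad2l1 was at 2.39, 1.94 and 2.92, 2.26, 2.68 and 2.63 and 1.61, 1.63, 2.46 and 2.24 CPM, and Prc1, which bundles midzone microtubules, at 1.6995, 0.887 and 2.08, 2.14, 1.68 and 2.52 and 1.73, 1.41, 1.25 and 1.98 CPM. The infarct and sham libraries overlapped for Ccna2, Mad2l1 and Prc1 too, and none of the 3 passed a test. Kif20a, a midzone kinesin, was at 1.38, 1.94 and 1.58, 1.95, 1.92 and 1.87 and 0.766, 1.26, 1.23 and 1.15 CPM. Every 24 h library of Kif20a was below every other, but the change was small and the call (-0.33 (SE 0.13), limma q = 0.0495) was lost in 9 of 18 alternatives. Kif20a overlaps Brd8 and Cdc23 on the opposite strand, and the use of strand in counting is not stated.

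Compared directly with 4 h, the hearts at 24 h post-MI had 9 members higher and 8 lower, beside 37.2% of all genes tested higher and 26.7% lower. The increases included 6 of 10 replication genes, led by Mcm6 (1.10) and Tyms (1.04) after Cdkn1a (1.40), as log2 fold changes. The call of Cdkn1a was lost in 5 of 19 alternatives, without 24 h library C, D or H or 4 h library C or E (limma q up to 0.107). All 10 mitotic genes tested had a negative log2 fold change, and 5 of them fell: Cenpf (-2.68), Top2a (-1.11), Mki67 (-0.96), Kif20a (-0.48) and Tpx2 (-0.41). Tpx2 binds and activates the spindle kinase Aurora A. Cdkn1c (-1.75), Rrm1 (-0.44) and Rrm2 (-0.51), the small subunit of ribonucleotide reductase, fell as well. The members' median was 0.04 and that of all genes 0.10. This comparison uses the same 24 h libraries as the one against sham. Cell type markers moved at the same time: against sham, 6 of 6 neutrophil markers tested and 5 of 8 macrophage markers were higher at 24 h, and 4 of 7 cardiomyocyte markers were lower. The macrophage markers summed to 252 to 478 CPM at 24 h and 94.1 to 159 CPM in sham hearts, and the cardiomyocyte markers to 18773 to 32438 CPM and 45489 to 48465 CPM. Their part in the members' changes was not tested.

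**Figure D1:**
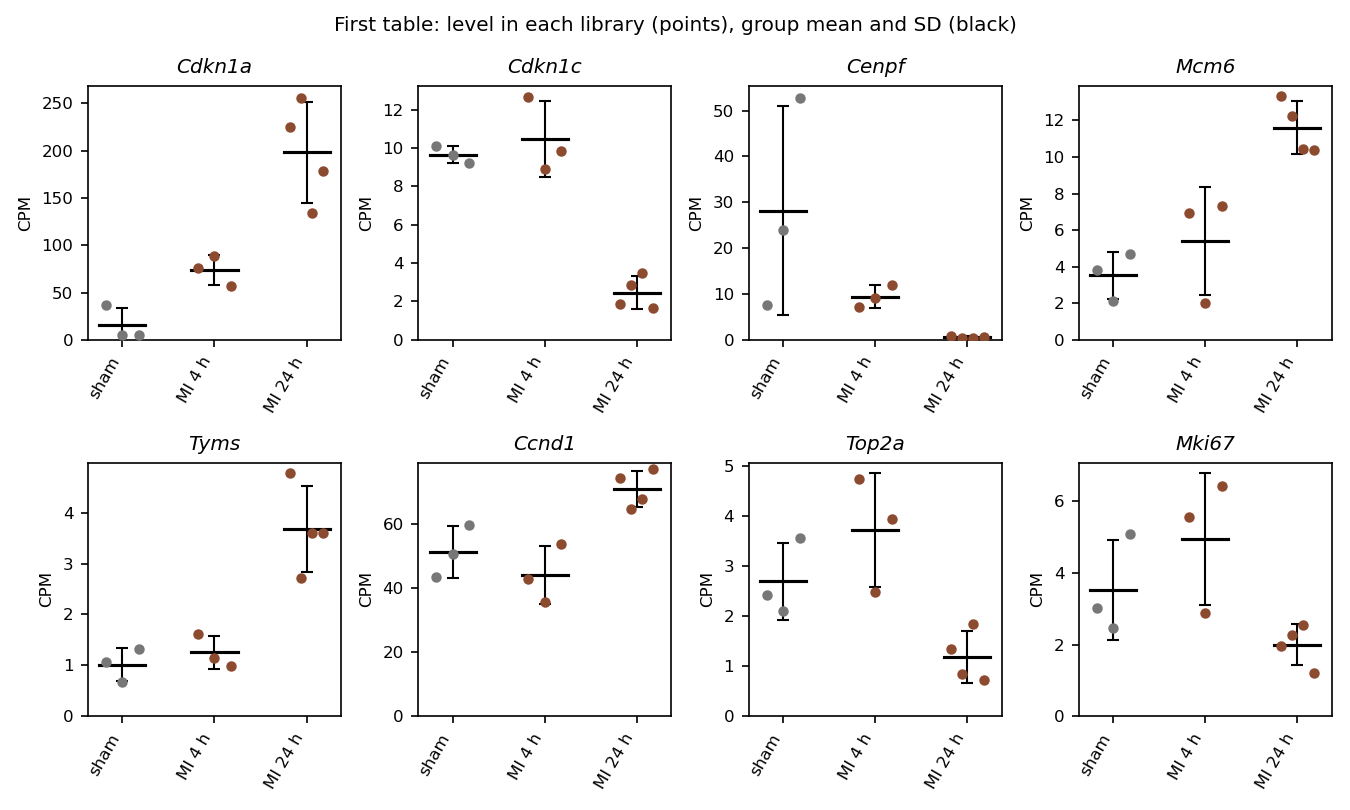
Levels in CPM (vertical axes, linear from 0) of 8 members in the 10 uninjected hearts, 3 sham, 3 taken 4 h after MI and 4 taken 24 h after MI. Each point is a library, and the black mark and bar give the mean and SD. Cdkn1a, Mcm6 and Tyms are highest at 24 h, and Cdkn1c and Cenpf are lowest there, with all 4 values of Cenpf under 1 CPM.

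The Luc hearts of the second table were taken at 4, 24 and 48 h post-MI with a control modRNA. At 4 h, 0 of the 45 members passed the test against sham, beside 1.55% of all genes (limma), of which 80.9% were higher with the deposited scaling and 70.2% with equal totals. At an unadjusted p under 0.05 there was 1, Cdkn1a, at 54.7 and 78.98 CPM in the sham libraries and 151, 144, 141 and 152 CPM in the Luc libraries (log2 fold change 1.15 (SE 0.54), limma q = 0.352). All 4 Luc libraries were above both sham libraries. At 24 h, Cdkn1a was at 496, 588 and 581 CPM and rose against sham by 3.05 (SE 0.57) on the log2 scale (limma q = 0.000351). Mcm3 also rose, by 0.83, and Cdkn1c fell by 1.17. The other 42 members did not pass at 24 h, while 25.3% of all genes tested higher and 8.79% lower did. That background depends on the scaling: 74.2% of all genes called were higher with the deposited scaling (median of all genes 0.16), 52.8% after median-ratio rescaling (-0.01) and 42.5% with equal totals (-0.11), and the members called were 2 up and 1 down, 2 and 2, and 1 and 2, with the call of Mcm3 lost at equal totals. The count of 3 was 1 without sham library 1 and 5 without Luc 48 h library 4. Against Luc at 4 h, Cdkn1a (1.90), Mcm3 (0.78) and Nusap1 (0.77), a spindle microtubule binder, rose at 24 h and Cdkn1c (-0.68) fell, in log2 fold changes and beside 24.5% of all genes tested higher and 7.80% lower. Of all genes called here, 75.9% were higher with the deposited scaling, 52.4% by median ratios and 48.2% with equal totals, and Nusap1 lost its call under both rescalings and in 7 of 32 alternatives in all. Without Luc 24 h library C or Luc 4 h library 4, the count of 4 was 2. At 24 h the cardiomyocyte markers summed to 57100 to 72334 CPM in Luc libraries and 49288 to 49882 CPM in sham. The macrophage markers summed to 91.6 to 130 CPM and 123 to 181 CPM. In the uninjected hearts at 24 h these sums were 18773 to 32438 CPM and 252 to 478 CPM. The tables were normalized separately, and the reason for this difference between them was not tested. The part of these cells in the members' changes was not tested either.

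At 48 h, 9 of 22 mitotic genes of the Luc hearts were higher than in sham hearts. Of the 45 members 12 rose and 3 fell, beside 13.7% of all genes tested higher and 16.4% lower. Those with mitotic roles were 9 (Aurka, Birc5, Bub1, Ccna2, Ccnb1, Cdc20, Cdk1, Plk1 and Tpx2), and 3 belonged to replication and nucleotide supply (Mcm3, Rrm2 and Tyms). The largest increases were Ccnb1 (log2 fold change of 1.27 (SE 0.25, limma q = 0.000596)), Cdk1 (log2 fold change of 1.15 (SE 0.36, limma q = 0.0204)) and Tyms (log2 fold change of 1.10 (SE 0.27, limma q = 0.00442)). Their calls were lost in 1, 3 and 2 of 32 alternatives, with limma q up to 0.0552, 0.244 and 0.113. Those of Ccna2 and Tpx2 were lost in 4 of 33 and 6 of 32. The decreases were Cenpf (-2.72), Cdkn1c (-1.45) and Ccnd2 (-0.77). The members' median log2 fold change was 0.57, and the median of all genes tested was -0.03. The count of 15 was 4 without sham library 2 and 25 without Luc 48 h library 3. Higher genes made up 45.4% of all genes called with the deposited scaling and 66.1% with equal totals, where 15 members were up and 2 down. Only 2 sham libraries, from another set, stand against 48 h. Cell type markers moved as well: 6 of 6 neutrophil, 4 of 8 macrophage and 4 of 7 fibroblast markers tested were higher and 2 of 7 cardiomyocyte markers were lower. The neutrophil markers summed to 113 to 423 CPM in Luc libraries at 48 h and 2.63 to 20.6 CPM in sham, the macrophage markers to 152 to 234 and 123 to 181 CPM, the fibroblast markers to 831 to 1282 and 658 to 679 CPM, and the cardiomyocyte markers to 32900 to 44702 and 49288 to 49882 CPM. Their part in the members' changes was not tested.

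The 4 Luc libraries at 48 h spread widely and in the same order for most mitotic members. Mki67 was at 4.01, 11.1, 2.45 and 15.2 CPM and Top2a at 5.0001, 7.51, 1.36 and 12.3 CPM in Luc libraries 1 to 4. Library 4 was the highest of the 4 for 22 of 22 mitotic members and library 3 the lowest for 20 of 22. Over all genes tested, library 4 was the highest for 35.6% and library 3 the lowest for 37.0%. Cdkn1a ran the other way, at 344, 89.9, 363 and 42.8 CPM, with the lowest values in libraries 4 and 2. Summed over the 21 mitotic members without Cenpf, libraries 3, 1, 2 and 4 held 23.1, 42.9, 79.8 and 111 CPM. The AC libraries at 24 h did not show this opposite order. There library C had the lowest Cdkn1a, 217 CPM beside 572 in A and 531 in D. It also had the lowest mitotic sum, 15.0 CPM beside 29.7 and 22.2.

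From 24 to 48 h the Luc hearts showed 15 increases and 4 decreases among the members, beside 9.32% of all genes tested higher and 32.6% lower. The largest increases were Cdk1 (1.15), Mcm5 (1.07) and Birc5 (0.99), the last encoding survivin of the chromosomal passenger complex. The decreases were Cdkn1a (-1.89), Cenpf (-1.40), Ccne1 (-0.74), which encodes cyclin E1, and Ccnd2 (-0.68), all as log2 fold changes. The scaling of the libraries moves this comparison: the median of all genes was -0.25 with the deposited scaling, -0.03 after median-ratio rescaling and 0.18 after rescaling to equal totals, and 22.3%, 49.0% and 77.5% of all genes called were higher. The members called were 15 up and 4 down, 20 and 1, and 27 and 1. The decreases of Cenpf, Ccne1 and Ccnd2 lost their calls under both rescalings, and that of Cdkn1a was kept in all 33 alternatives. From 24 to 48 h 5 of 8 macrophage and 4 of 6 neutrophil markers tested rose and 6 of 7 cardiomyocyte markers fell in the Luc hearts. The count of 19 was 11 without Luc 24 h library C and 12 without Luc 48 h library 2.

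Between AC and Luc hearts no member passed the test at 4 h or at 24 h. At both times 0 of 45 passed (limma), beside 0.00796% and 0.00796% of all genes, and 0 of 45 had an unadjusted p under 0.05. Members that were very low at these times, such as Ccnb1, could hardly show a difference on this scale. At 4 h the log2 differences ran from -0.27 to 0.20, with a median of -0.01. At 24 h they ran from -0.86 to 0.21 with a median of -0.21, and 37 of 45 were negative, including 21 of 22 with mitotic roles. The largest was Mki67, at 7.22, 4.5998 and 7.13 CPM in the Luc and 6.21, 0.858 and 3.68 CPM in the AC libraries (-0.86 (SE 0.48), limma q = 0.991). AC library A lay within the Luc range, and library C, the lowest of the 3 AC libraries for 13 of 22 mitotic members, lay far below it. The 5 genes named after their values were seen, Cdc20, Foxm1, Plk1, Top2a and Tpx2, were lower in all AC than in all Luc libraries at 24 h, 5 of 45 members beside 6.92% of all genes without overlap in the lower and 2.41% in the higher direction. At this number of libraries, changes of the size seen at 24 h could not be told from the spread.

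At 48 h post-MI nearly the whole list was higher in AC than in Luc hearts. Of the 45 members 41 rose and 1, Cdkn1a, fell, beside 12.1% of all genes tested higher and 3.27% lower. The 22 mitotic members all rose, with log2 fold changes from 1.28 to 2.13 and ratios of mean CPM from 1.86 to 4.67. So did 9 of 10 replication genes (group median 1.22), 8 of 8 G1 genes (0.71), and both E2f1 and Foxm1. AC and Luc libraries did not overlap for 40 members, beside 15.5% of all genes without overlap in the higher and 3.58% in the lower direction. The members' median was 1.45 and that of all genes tested 0.14. After median-ratio rescaling, which brought the median of all genes to 0.00, the members called were 36 up and 1 down and 50.6% of all genes called were higher, against 78.7% with the deposited scaling. Rescaled to equal totals they were 42 and 1, and 83.3%.

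Mki67 (chr7:135689788-135716380) was at 4.07 and 3.84 CPM in the sham libraries, 4.47, 4.28, 5.48 and 4.12 in Luc and 2.69, 6.63, 2.04 and 6.43 in AC at 4 h, and 4.01, 11.1, 2.45 and 15.2 in Luc and 21.5, 36.8, 40.3 and 28.9 in AC at 48 h. Every AC library at 48 h was above every other library of the table, and the lowest of them was 1 and the highest Luc library was 4. The mean rose from 8.201 ± 6.01 CPM to 31.9 ± 8.41 CPM (SD, n = 4 each), a log2 fold change of 2.07 (SE 0.41, limma q = 0.00209). Top2a (chr11:98992947-99024190) was at 2.705 and 2.06 CPM in sham, 3.01, 2.56, 3.72 and 2.21 in Luc and 1.55, 2.699, 1.67 and 4.15 in AC at 4 h, and 2.41, 3.47 and 2.78 in Luc and 1.99, 0.731 and 1.55 in AC at 24 h. At 48 h it was at 5.0001, 7.51, 1.36 and 12.3 CPM in Luc and 22.4, 27.99, 32.1 and 25.02 CPM in AC libraries. The 4 AC libraries at 48 h were above all others of the table, and the difference to Luc was the largest of the list (log2 fold change of 2.13 (SE 0.34, limma q = 0.000259)). Both genes hold TTTGAA in the promoter windows printed above.

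**Figure D2:**
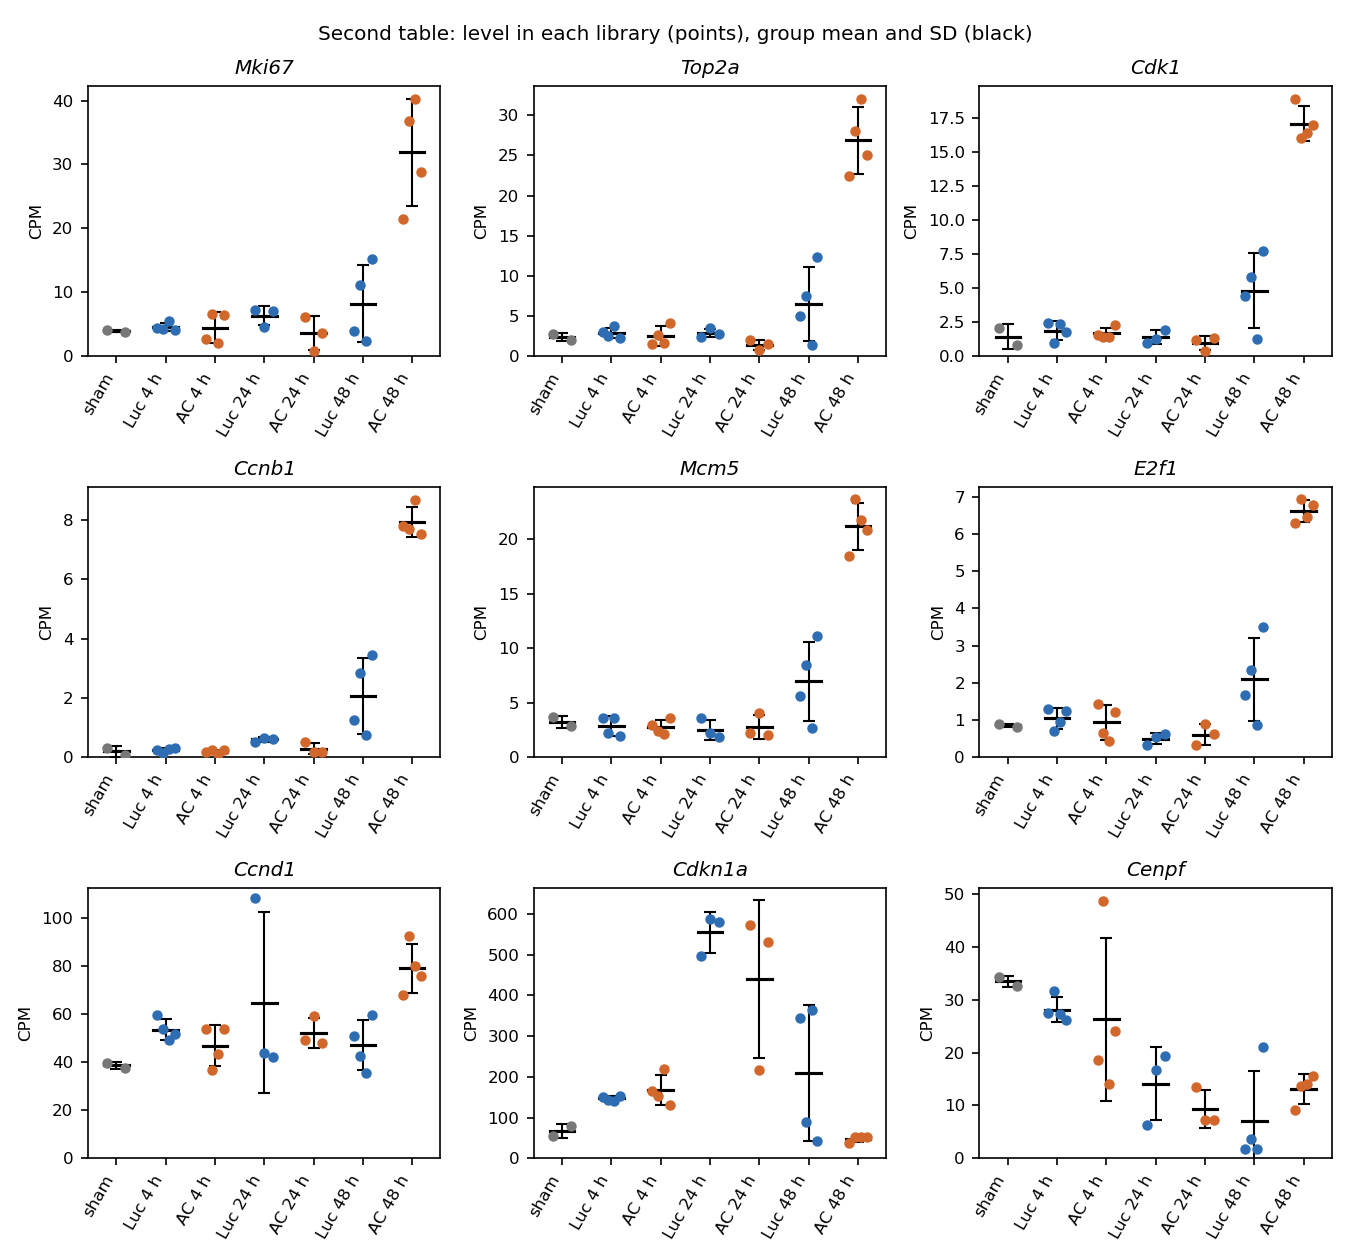
Levels in CPM (vertical axes, linear from 0) of 9 members in the 7 groups of the second table: sham (n = 2), Luc and AC at 4 h (n = 4 each), at 24 h (n = 3 each) and at 48 h (n = 4 each). Each point is a library, and the black mark and bar give the mean and SD. For Mki67, Top2a, Cdk1, Ccnb1, Mcm5, E2f1 and Ccnd1 the 4 AC libraries at 48 h lie above the 4 Luc libraries, while Cdkn1a peaks at 24 h.

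Of the mitotic kinases and cyclins, Cdk1 was at 2.09 and 0.793 CPM in sham, 2.45, 0.947, 2.37 and 1.77 in Luc and 1.55, 1.44, 1.42 and 2.31 in AC at 4 h, and 0.948, 1.24 and 1.96 and 1.19, 0.381 and 1.34 at 24 h. At 48 h the Luc libraries were at 4.45, 5.84, 1.26 and 7.77 CPM and the AC libraries at 18.96, 16.04, 16.4 and 16.998 CPM. The AC libraries were close together and all above the Luc libraries (log2 fold change of 1.79 (SE 0.30, limma q = 0.000389)). Ccnb1 was at 0.326 and 0.0635 CPM in sham, 0.245, 0.140, 0.271 and 0.295 in Luc and 0.168, 0.230, 0.109 and 0.257 in AC at 4 h, and 0.511, 0.657 and 0.627 and 0.517, 0.191 and 0.172 at 24 h. By 48 h it stood at 1.24, 2.83, 0.763 and 3.46 CPM in Luc and 7.78, 7.71, 8.68 and 7.54 CPM in AC libraries, from 2.07 ± 1.28 CPM to 7.93 ± 0.512 CPM (SD, n = 4 each). Its log2 fold change of 1.64 (SE 0.20) was among those with the lowest q of the list (limma q = 5.65e-05), with Plk1 and Cdc20. Ccnb1 entered the tests with these AC libraries in its mean. Its call was kept in all 32 alternatives, the fit without a filter included. Ccna2 was at 4.46, 7.27, 2.44 and 9.62 CPM in Luc and 18.5, 18.6, 22.6 and 19.4 CPM in AC libraries at 48 h, and between 1.19 and 2.96 CPM in every earlier library. Cyclin A2 thus stood apart from all other groups in the AC hearts (log2 fold change of 1.70 (SE 0.24, limma q = 0.000131)). Ccna2 overlaps Exosc9, and Cdc20 overlaps Elovl1, on the opposite strand.

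Among the spindle and checkpoint genes, Prc1 was at 1.79 and 1.21 CPM in sham, 1.61, 1.79, 1.83 and 1.77 in Luc and 1.17, 2.04, 1.09 and 2.09 in AC at 4 h, and 1.46, 0.986 and 1.92 and 1.59, 0.413 and 1.17 at 24 h. The 48 h levels were 2.45, 5.696, 1.13 and 7.52 CPM in Luc and 12.6, 15.7, 17.9 and 14.1 CPM in AC libraries. The groups at 48 h were well separated (log2 fold change of 1.82 (SE 0.29, limma q = 0.000303)). Tpx2 was at 2.15, 4.21, 1.29 and 6.86 CPM in Luc and 10.9, 14.04, 16.5 and 13.1 CPM in AC libraries at 48 h (log2 fold change of 1.81 (SE 0.27, limma q = 0.000157)), and Mad2l1 at 2.74, 4.76, 1.43 and 5.94 and 11.3, 9.104, 8.49 and 9.76 CPM (log2 fold change of 1.28 (SE 0.22, limma q = 0.000504)). Nusap1 was at 0.693, 1.76, 1.36 and 2.27 and 6.504, 5.997, 7.67 and 6.38 CPM, and Birc5 at 1.86, 3.71, 1.09 and 5.17 and 13.4, 8.82, 9.57 and 9.01 CPM. All 4 AC libraries were above all 4 Luc libraries for each of these 5 genes. Nusap1 shares its locus with Oip5 on the opposite strand.

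Cenpf departed from this pattern. It was at 34.3 and 32.7 CPM in sham, 27.5, 31.6, 27.3 and 26.1 in Luc and 18.5, 48.6, 14.1 and 24.05 in AC libraries at 4 h, and 6.31, 16.8 and 19.3 and 13.4, 7.31 and 7.16 at 24 h. Its 48 h values were 1.68, 3.59, 1.76 and 21.1 CPM in Luc and 9.09, 13.6, 14.1 and 15.5 CPM in AC libraries. In both tables the level was highest in the sham libraries on average, and Luc library 4 at 48 h lay above all AC libraries while the other 3 lay below them. The 48 h difference of 1.41 (SE 0.47) reached a limma q of 0.047 and was lost in 20 of 33 alternatives.

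The replication genes had a lower median log2 fold change at 48 h than the mitotic genes, 1.22 beside 1.62. Mcm5 was at 3.65 and 2.86 CPM in sham, 3.63, 2.21, 3.62 and 1.99 in Luc and 2.94, 2.44, 2.15 and 3.598 in AC at 4 h, and 3.57, 2.19 and 1.84 and 2.23, 4.03 and 2.06 at 24 h. The values at 48 h were 5.62, 8.41, 2.65 and 11.1 CPM in Luc and 18.4, 23.7, 21.7 and 20.8 CPM in AC libraries. It gave the largest difference of the 10 (log2 fold change of 1.61 (SE 0.27, limma q = 0.000392)), with no overlap. Pcna was at 31.4, 28.5, 20.1 and 29.1 CPM in Luc and 50.8, 44.4, 40.4 and 48.4 CPM in AC libraries at 48 h, and between 15.7 and 30.5 CPM before. Rrm1 was at 11.3, 11.5, 7.195 and 17.2 and 24.4, 29.3, 32.6 and 26.03 CPM at 48 h. Both rose without overlap, by 0.75 (SE 0.16) and 1.23 (SE 0.16) on the log2 scale. Tyms was at 3.08, 4.0996, 1.799 and 4.97 and 10.8, 9.09, 10.5 and 9.28 CPM, and Mcm3 at 8.03, 8.47, 4.84 and 12.001 and 16.9, 22.1, 20.6 and 20.1 CPM. Mcm6, at 10.9, 12.7, 8.26 and 13.9 and 17.97, 27.6, 32.5 and 22.1 CPM, was the replication gene that did not pass, although its groups did not overlap (1.06 (SE 0.37), limma q = 0.0535).

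E2f1 was at 0.881 and 0.826 CPM in sham, 1.29, 0.702, 0.948 and 1.25 in Luc and 1.43, 0.661, 0.437 and 1.21 in AC at 4 h, and 0.328, 0.548 and 0.628 and 0.318, 0.890 and 0.619 at 24 h. By 48 h the levels were 1.68, 2.34, 0.862 and 3.51 CPM in Luc and 6.301, 6.94, 6.46 and 6.79 CPM in AC libraries (log2 fold change of 1.37 (SE 0.21, limma q = 0.000176)). The AC libraries at 48 h were above all others of the table. Foxm1 was at 1.304 and 2.19 CPM in sham, 2.93, 1.89, 2.06 and 2.14 in Luc and 0.965, 2.44, 1.601 and 2.35 in AC at 4 h, and 2.95, 3.25 and 4.62 and 2.59, 1.59 and 2.58 at 24 h. At 48 h it was at 2.77, 4.44, 1.26 and 5.86 and 10.2, 12.5, 13.2 and 10.5 CPM (log2 fold change of 1.57 (SE 0.25, limma q = 0.000294)), again with the AC libraries above all others.

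The G1 genes had the lowest median of the groups that rose. Ccnd1 (chr7:144929931-144939926) was at 39.8 and 37.7 CPM in sham, 59.6, 53.8, 49.3 and 51.7 in Luc and 53.9, 36.7, 43.3 and 54.1 in AC at 4 h, and 109, 43.8 and 42.3 and 49.5, 59.4 and 47.97 at 24 h. By 48 h it stood at 50.8, 42.5, 35.4 and 59.8 CPM in Luc and 68.3, 92.5, 80.1 and 75.96 CPM in AC libraries. The 48 h groups did not overlap (log2 fold change of 0.75 (SE 0.22, limma q = 0.0223)), but Luc 24 h library A was above all of them. Ccnd2 was at 73.2 and 79.4 CPM in sham, 72.7, 88.2, 85.03 and 82.6 in Luc and 84.1, 88.9, 71.7 and 67.5 in AC at 4 h, and 63.4, 96.7 and 59.3 and 57.1, 55.3 and 63.01 at 24 h. The 48 h levels were 41.6, 44.1, 31.8 and 65.8 in Luc and 55.2, 74.8, 95.8 and 69.4 CPM in AC libraries. The AC hearts at 48 h were close to the range of earlier times, and the difference (log2 fold change of 0.70 (SE 0.19, limma q = 0.0157)) came with overlap between the groups. The calls of Ccnd1 and Ccnd2 were each lost in 5 alternatives. Ccne1 was at 1.42, 1.52, 0.663 and 1.91 and 3.25, 3.28, 3.53 and 3.85 CPM at 48 h, and 2.04, 3.07 and 3.801 CPM in the Luc hearts at 24 h. Ccnd1 and Ccnd2 overlap Oraov1 and 9330179D12Rik on the opposite strand.

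The inhibitors did not share the rise. Cdkn1a was at 165, 154, 218 and 130.5 CPM in AC libraries at 4 h, 496, 588 and 581 in Luc and 572, 217 and 531 in AC at 24 h, and 344, 89.9, 363 and 42.8 in Luc and 37.5, 51.5, 51.3 and 51.05 in AC at 48 h. Its mean was highest at 24 h in both arms, and at 48 h all AC libraries and Luc library 4 were below the sham libraries, with Luc library 2 slightly above them and Luc libraries 1 and 3 far above. Cdkn1a fell by 1.63 on the log2 scale (SE 0.44, limma q = 0.0169), from 209.9 ± 167 CPM to 47.8 ± 6.87 CPM (SD, n = 4 each), with overlap through Luc library 4. The call was lost without Luc library 1 or 3, in the model of the groups compared alone and with the library number as a block, with q up to 0.159. Cdkn1b was at 15.5 and 14.1 CPM in sham, 11.2, 11.5, 10.5 and 11.5 in Luc and 17.7, 10.2, 11.03 and 14.03 in AC at 4 h, and 8.72, 12.1 and 12.3 and 8.71, 11.3 and 12.5 at 24 h. Its 48 h values were 22.5, 16.1, 19.3 and 17.6 CPM in Luc and 18.2, 16.98, 17.7 and 17.5 CPM in AC libraries. The 48 h groups overlapped (-0.09 (SE 0.15), limma q = 0.746). Cdkn1c was at 16.4 and 11.1 CPM in sham, 9.401, 8.91, 8.33 and 10.9 in Luc and 16.6, 7.69, 9.93 and 10.6 in AC at 4 h, and 7.84, 3.36 and 5.995 and 4.65, 6.26 and 6.06 at 24 h. The values at 48 h were 5.69, 3.42, 3.35 and 5.14 CPM in Luc and 2.41, 3.11, 3.15 and 3.21 CPM in AC libraries. The AC values were all lower but did not pass (-0.42 (SE 0.21), limma q = 0.186).

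Within the AC arm, 40 members rose and 2 fell from 24 to 48 h, beside 19.0% of all genes tested higher and 25.5% lower. The largest increases were Top2a (3.55), Cdk1 (3.23) and Mki67 (3.01), and the decreases were Cdkn1a (-3.06) and Cdkn1c (-0.74), as log2 fold changes. Ccnd2, Ccne1 and Cenpf did not pass. The members' median was 1.97 and that of all genes -0.08, which became 0.33 with equal totals, where 81.9% of all genes called were higher instead of 42.6% and the members called were 42 up and 1 down. In the same comparison 7 of 8 macrophage and 4 of 7 fibroblast markers rose and 6 of 7 cardiomyocyte markers fell. Between 24 and 48 h the summed macrophage markers went from 84.7 to 185 CPM to 395 to 578 CPM, the fibroblast markers from 794 to 1138 CPM to 1541 to 2465 CPM, and the cardiomyocyte markers from 50871 to 60753 CPM to 24706 to 30321 CPM. Their part in these increases was not tested. From 4 to 24 h a single member passed in the AC arm, Cdkn1c (-0.83), beside 14.9% of all genes tested higher and 3.80% lower, and Cdkn1a gave 1.30 with a limma q of 0.0599. Of all genes called here, 79.7% were higher with the deposited scaling and 52.5% after median-ratio rescaling, where 2 members were lower and 0 higher. Without AC 24 h library A or AC 4 h library 1 this count was 0, and it was up to 5 without Luc 48 h library 4. Across times, library set and time cannot be told apart.

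The difference between AC and Luc was itself compared between times. It was larger at 48 h than at 24 h for 29 members and smaller for 0, beside 2.23% of all genes tested higher and 0.335% lower, and larger at 48 h than at 4 h for 31 and smaller for 0, beside 2.88% of all genes tested higher and 0.470% lower. Higher genes made up 87.0% and 86.0% of all genes called with the deposited scaling and 55.7% and 58.8% by median ratios, with 27 and 29 members larger and 0 smaller, while equal totals gave 76.0% and 91.2%, with 28 and 34. Of the 22 mitotic members, 20 and 21 passed. The largest differences of log2 fold changes between 48 and 24 h were Mki67 (2.93 (SE 0.63)), Top2a (2.84 (SE 0.52)) and Nusap1 (2.19 (SE 0.36)). Between 48 and 4 h they were Top2a (2.31), Mki67 (2.22) and Prc1 (1.92), with the call of Mki67 lost in 14 of 33 alternatives. Cdkn1a did not pass in either (-1.17, limma q = 0.389, and -1.78, limma q = 0.12). Between 24 and 4 h, 0 members passed (limma), beside 0.00796% of all genes, and 0 had an unadjusted p under 0.05.

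**Figure D3:**
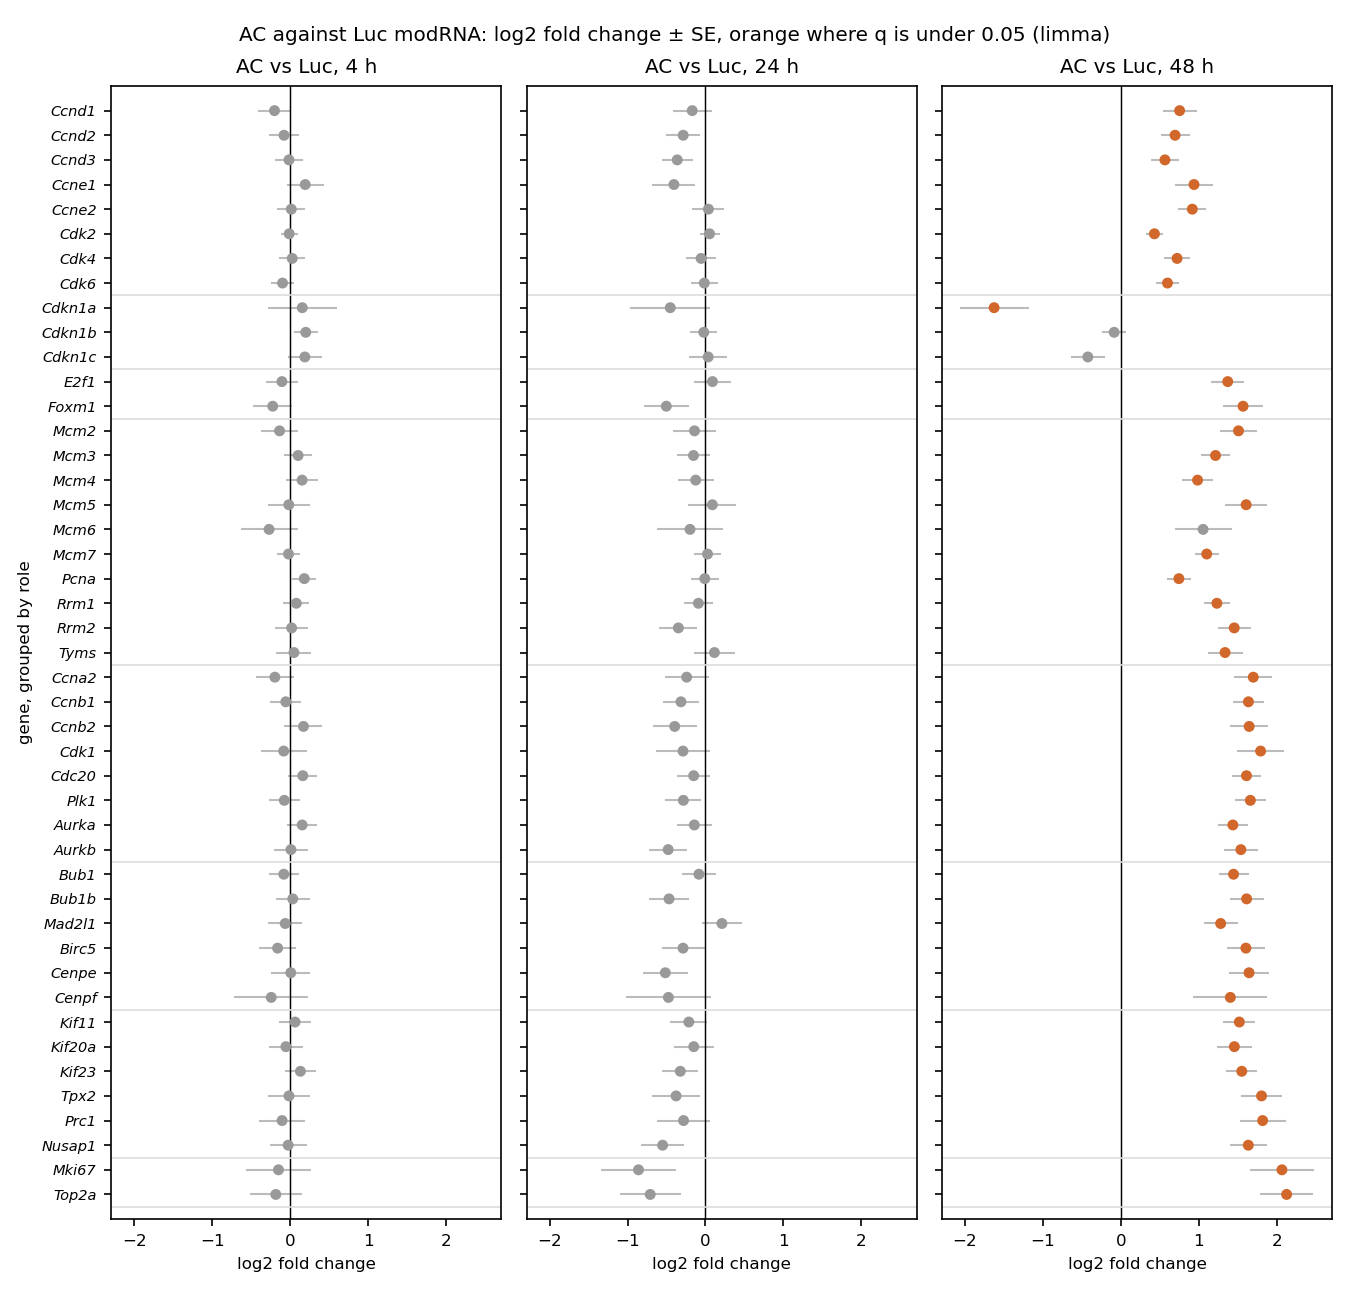
The log2 fold change of AC against Luc hearts, with its SE, for each of the 45 members at 4, 24 and 48 h post-MI. Orange marks a limma q under 0.05. No member is orange at 4 or 24 h, and 42 are at 48 h, all to the higher side except Cdkn1a.

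Markers of other cells moved with the 48 h difference. The 8 macrophage markers summed to 395 to 578 CPM in AC and 152 to 234 CPM in Luc libraries, with 7 of 8 higher (limma, Ly6c2 the exception). The 7 fibroblast markers summed to 1541 to 2465 CPM and 831 to 1282 CPM, with 5 of 7 higher (not Dcn or Pdgfra). The 7 cardiomyocyte markers summed to 24706 to 30321 CPM in AC and 32900 to 44702 CPM in Luc libraries, with Myh6 and Tnnt2 lower. None of 5 endothelial markers passed the test, 1 of 6 neutrophil markers tested was lower and 1 of 4 atrial markers was higher. The 21 mitotic members without Cenpf summed to 212 to 268 CPM in the AC libraries at 48 h, to between 23.1 and 111 CPM in the Luc libraries and to between 15.0 and 38.8 CPM in every library of the other 5 groups. The replication genes summed to 191 to 226 CPM in AC and 59.1 to 125 CPM in Luc libraries at 48 h. The part of macrophages, fibroblasts or other cells in the members' levels was not tested.

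**Figure D4:**
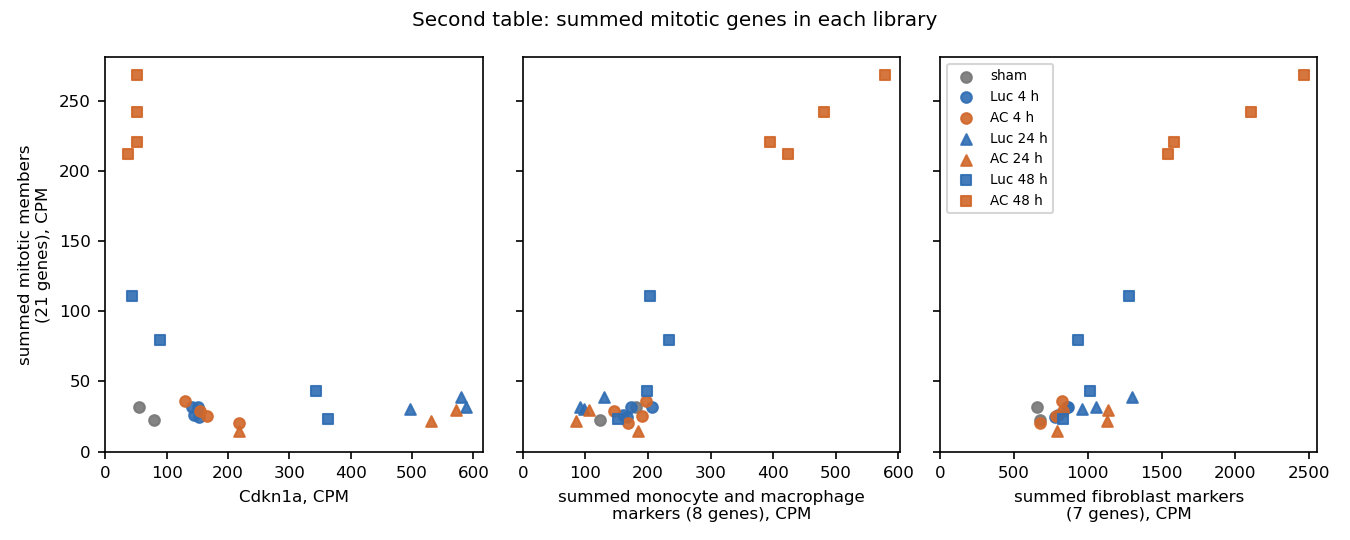
Summed level of the 21 mitotic members without Cenpf (vertical axes, CPM) in each of the 24 libraries of the second table, against the level of Cdkn1a, the summed level of 8 macrophage markers and that of 7 fibroblast markers (horizontal axes, CPM). Each point is a library, colored by group. The 4 AC libraries at 48 h lie at 212 CPM or above, with low Cdkn1a and the highest macrophage and fibroblast sums. Luc libraries 2 and 4 at 48 h, also with low Cdkn1a, lie next. Sham libraries 1 and 2 have low Cdkn1a too, at 54.7 and 79.0 CPM, but mitotic sums of only 32.0 and 22.7 CPM.

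Wider lists of the same pathway, without the members, gave the following counts for AC against Luc at 48 h, beside 12.1% of all genes tested higher and 3.27% lower. Of 33 mitotic spindle and kinetochore genes tested, 30 rose and 0 fell (median 1.30), led by Racgap1 (1.66) and Anln (1.66), which act in cytokinesis. Of 37 genes of the replication machinery 24 rose and 0 fell (median 0.76), led by Uhrf1 (1.60), which maintains DNA methylation, and thymidine kinase Tk1 (1.59). Of 17 regulators of the E2F, RB and DREAM system 6 rose and 1 fell, with Mybl2, which encodes B-MYB, at 1.16, Rbl1 at 0.97 and Tfdp2 at -1.27. Of 17 checkpoint genes and p53 targets 3 rose and 0 fell (median -0.03), a share near that of all genes, among them Chek2 (0.97) and Trp53 (0.80), and of 11 INK4 inhibitors and other cyclins 3 rose and 1 fell. At 4 and 24 h, 0 of the 115 genes of these lists passed for AC against Luc (limma). The p53 targets are known to include Cdkn1a.

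In uninjected hearts at 24 h post-MI against sham, the counts of the wider lists were mostly near those of all genes, 35.6% of all genes tested higher and 30.3% lower. They were 11 up and 8 down of 31 replication genes tested, 4 and 5 of 15 spindle genes, 5 and 5 of 16 E2F, RB and DREAM regulators, 9 and 4 of 17 checkpoint genes and p53 targets, and 4 and 5 of 11 INK4 inhibitors and other cyclins. The list of checkpoint genes and p53 targets had the highest share up. It held the largest increases, Gadd45g at 4.91 and Gadd45b at 3.11 in log2 fold change, both stress-induced. The largest decreases were Gmnn, the replication licensing inhibitor geminin, at -1.76, Rbl2, the p130 pocket protein of DREAM, at -1.69 and the p53 target Ccng1 at -1.69. At 4 h against sham, 4 of 17 checkpoint genes and p53 targets rose in uninjected hearts, beside 1.55% of all genes tested higher. In Luc hearts 2 of 17 rose at 4 h, beside 1.55% of all genes called in either direction. No gene of the other 4 lists passed at 4 h. In Luc hearts at 48 h against sham, 15 of 33 spindle genes rose and 2 fell, led by Anln (1.35) and Racgap1 (1.12), and 7 of 37 replication genes rose and 2 fell, beside 13.7% of all genes tested higher and 16.4% lower.

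By promoter letters, the 13 members with TTTGAA all rose in AC against Luc hearts at 48 h, beside 12.1% of all genes, with log2 fold changes from 1.41 to 2.13 and a median of 1.61. Of the 22 members with a window without TTTGAA 19 rose and 1 fell, from -1.63 to 1.65 with a median of 1.22. At 24 h post-MI in uninjected hearts, 0 of the 7 tested with TTTGAA rose and 2 fell, and of 16 without it 7 rose and 1 fell, beside 35.6% of all genes tested higher and 30.3% lower. These counts are small, and the 2 of 7 lower is near the share of all genes. Of the 6 members with an E2F sequence 3 rose at 24 h (Mcm3, Mcm5 and Mcm6) and 5 rose in AC against Luc at 48 h, with Mcm6 the one that did not pass. The windows were searched with these values known, and the mitotic genes are most of those with TTTGAA, so letters and role are not separate here.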

How the data were processed

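LV RNA of CFW mice was made into stranded poly(A) libraries and sequenced as single 50-bp reads. The authors used STAR for alignment to mm10 and Partek Flow for counting on RefSeq genes by expectation maximization, which shares a read among the genes it fits, and then applied TMM, and the deposited values are CPM. Whether counting used the strand is not given in the sources used here. The second table holds deposited CPM plus 1, since its lowest value is exactly 1 in all 24 libraries, and 1 was subtracted. Read lengths and tools are those stated for the first table, and for the second the labels name only the build and the library kit. The tables were normalized separately and tested separately. The CPM values of a library sum to between 508204 and 818456.

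Depth was estimated from the value of 1 read, the lowest value of a library in the first table and the most frequent low value in the second. Whole multiples of it made up a median of 82.7% and 85.4% of the low values, those under 1 CPM (tolerance 0.02 reads), too few for a count test. Values far below 1 CPM rest on few reads.

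Groups were taken from the sample labels. Within each table all groups entered 1 limma model (R 4.3.3, limma 3.58.1, lmFit and eBayes with trend, no covariates) of log2(CPM + 1) for genes averaging 1 CPM or more, 12487 of 14552 and 12555 of 17406 genes. Tests were two-sided. The script was checked on simulated data. Python 3.11 with numpy 2.4.6, pandas 2.3.3 and matplotlib 3.10.9 did the rest. The members and all lists were chosen with earlier results of these data known. Named by rule were, per table, the 2 members of each role with the highest mean, Mki67, Top2a, Ccnb1, Cdk1, Ccnd1, Ccnd2 and Cdkn1a, and per comparison up to 3 increases and 3 decreases, and 2 each from the wider lists. Members just named for a role or an overlap fall outside it. Alternatives were a pseudocount of 0.1, no filter or a mean of 5 CPM, no trend, array weights, rescaling by median ratios or to equal totals, the library number as a block, the compared groups alone, and each library left out in turn. Correlations of the deviations of same-numbered libraries ran from -0.21 to 0.34. They were the best with the same number in some pairs and not in others. Whether libraries were paired could not be settled from this, and the main model holds no pairing. With the library number as a block, all genes called for AC against Luc at 48 h went from 1516 higher and 410 lower to 358 and 82. Promoter windows and gene positions are RefSeq on GRCm38.p6. The proteomics of the paper were not analysed here.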

Additional observations from a re-analysis of the deposited data

Results flagged for a closer look

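In 4 of 85 checks of a member in a group of 4 libraries or more, a library stood apart from the rest by Dixon's test. Chance alone gives about 1 in 20 groups. Ccnd2 was at 70.3 CPM in library G at 24 h post-MI, while the other 3 lay between 41.1 and 46.0 CPM. Cdkn1a was at 37.5 CPM in AC library 1 at 48 h, below the other 3 at 51.0 to 51.5 CPM. Cdk1 was at 2.31 CPM in AC library 4 at 4 h, above the other 3 at 1.42 to 1.55 CPM. Cenpf was at 21.1 CPM in Luc library 4 at 48 h, above the other 3 at 1.68 to 3.59 CPM. The same Luc library was the highest of its group for all 22 mitotic members.

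The effect of MI differed between 24 and 4 h (limma) in the uninjected hearts for 8 members whose values are given in every library, with log2 differences of 0.69 for Ccnd1, 1.40 for Cdkn1a, -2.68 for Cenpf, -0.48 for Kif20a, -0.96 for Mki67, 0.73 for Pcna, -0.44 for Rrm1 and -1.11 for Top2a. Both times share the sham libraries, so this is the direct comparison of the infarct groups. Over all genes tested, 37.2% were higher and 26.7% lower at 24 h than at 4 h. Of the 32 members tested, 9 were higher and 8 lower, so these calls do not set the members apart from all genes. The call of Cdkn1a was lost in 5 of 19 alternatives.

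The difference between AC and Luc hearts was larger at 48 h than at 24 h (limma interaction) for Ccna2 (1.94), Ccnb1 (1.95), Cdk1 (2.08), E2f1 (1.28), Foxm1 (2.07), Mki67 (2.93), Prc1 (2.10), Rrm1 (1.32), Top2a (2.84) and Tpx2 (2.18), in log2 units. Against 4 h it was larger at 48 h for Ccna2 (1.89), Ccnb1 (1.69), Cdk1 (1.88), E2f1 (1.48), Foxm1 (1.79), Mad2l1 (1.34), Mki67 (2.22), Prc1 (1.92), Rrm1 (1.15), Top2a (2.31) and Tpx2 (1.82). The call of Mki67 against 4 h was lost in 14 of 33 alternatives and that of E2f1 against 24 h in 11 of 32. The part of cell composition in these differences was not tested.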

How the results depend on the processing

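Of 106 called results of named members, 67 kept their call under every alternative, 39 lost it in some and 0 changed direction. Counts of members called moved by over 1.5 times as follows, and the cause was not tested except for the stricter filter, which leaves 16 members to test in the first table and 21 in the second. Under the filter of 5 CPM, the counts became 10 (from 17) for MI 24 h against 4 h, 5 (15) for Luc 48 h against sham, 6 (19) for Luc 48 h against 24 h, 19 (42) for AC 48 h against 24 h, 17 (42) for AC against Luc at 48 h, 7 (29) for its difference from 24 h and 7 (31) for its difference from 4 h. With only the groups compared, they were 1 (0) for Luc 4 h and 3 (15) for Luc 48 h against sham, 10 (4) for Luc 24 h against 4 h and 4 (19) for Luc 48 h against 24 h. Array weights gave 3 (1) for MI 4 h against sham, 12 (4) for Luc 24 h against 4 h and 4 (1) for AC 24 h against 4 h, where a pseudocount of 0.1, no trend and median-ratio scaling each gave 2. The library number as a block gave 0 (1) for MI 4 h against sham, 2 (1) for AC 24 h against 4 h and 19 (31) for the difference of AC against Luc between 48 and 4 h. It moved no other count by over 1.5 times, with AC against Luc at 48 h going to 32 (42). Leaving out 1 library at a time, the counts ran from 0 to 2 for MI 4 h against sham (2 without sham D), 1 to 5 for Luc 24 h and 4 to 25 for Luc 48 h against sham, 2 to 5 for Luc 24 h against 4 h, 11 to 25 for Luc 48 h against 24 h (25 without Luc 48 h library 3), and 0 to 5 for AC 24 h against 4 h. For AC against Luc at 48 h they ran from 36 to 43, within 1.5 times of the main count. In the first table, 13 members were too low to test.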
